A study of Homo sapiens with 6 samples.

Results

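The human mitochondrial genome carries 37 genes, namely 2 rRNA, 13 protein-coding and 22 tRNA genes. All 37 were among the 28395 gene IDs counted in every library. Membership was set only by placement on chromosome MT, where RefSeq and GENCODE gave the same start and end for each of the 37. The set was taken up with earlier results of these data known. The cells were HCT116, an established human colorectal cancer line, and both groups were cultured and treated for 24 h in the same medium. The TR-107 group (3 libraries) received 50 nM TR-107, a small-molecule agonist of the mitochondrial matrix protease ClpP, and the DMSO group (3 libraries) received 0.1% DMSO. All cells came from this single line, and the labels do not give the DMSO content of the TR-107 wells. The design text describes 3 biological replicates of each condition, but nothing says how the 3 cultures of a group were separated. The p-values here therefore cover only library-to-library spread within this line, part of which may be technical.

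Mitochondrial DNA is transcribed from both strands as long precursors that run through many genes. Most genes are transcribed from the heavy strand and lie on the plus strand of the reference sequence, while MT-ND6 and a smaller set of tRNAs lie on the opposite strand. The tRNAs sit between the longer genes like punctuation, and cutting at their ends by RNase P and ELAC2 releases the rRNAs and mRNAs. MTPAP then adds poly(A) to most mRNAs, which for several of them completes a stop codon that the DNA encodes only in part. The rRNAs carry short A tails, MT-ND6 mRNA carries little or no tail, and mature tRNAs end in CCA. The libraries were enriched for poly(A) RNA, so a change in the amount of an RNA and a change in its tail cannot be told apart here. Nor can a change in mitochondrial RNA per cell be told apart from a change in nuclear RNA, or from a change in some of the cells only.

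The first sequence shown is the end of the 16S rRNA gene MT-RNR2 and the whole of the leucine tRNA gene MT-TL1 (GRCh38 chrM:3200-3304, plus strand). With tRNA genes left out, the largest group difference in the ratio of successive genes lay across it, from MT-RNR2 to MT-ND1. Among adjoining genes, the log2 fold changes of MT-RNR1 and MT-TV (2.92 and -1.38) lay further apart than those of MT-RNR2 and MT-TL1 (2.09 and -1.60). Capitals mark TGGCAGAGCCCGG, the textbook core of the site bound by the termination factor MTERF1, which starts at base 8 of MT-TL1 and covers chrM:3237-3249. Searched on both strands, these letters occurred in 1 of the 37 mitochondrial genes and in 1 of 35116 nuclear promoter windows of 300 bases (0.00285%). The letters were taken from MT-TL1, so the mitochondrial hit was given in advance. Nuclear promoters are no matched background for a mitochondrial site, and binding at the site was not tested. Sequences are from GENCODE 29 transcripts.
MT-RNR2 to MT-TL1 junction: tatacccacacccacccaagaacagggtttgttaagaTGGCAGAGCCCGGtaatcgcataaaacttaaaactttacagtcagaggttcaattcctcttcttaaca

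The last 30 bases of 6 genes, all on the plus strand, are shown because they include the genes with the clearest rises and falls and show how far the DNA encodes their stop codons, which are in capitals. MT-CYB, MT-ND2 and MT-ND3 were higher in TR-107, and MT-ND1, MT-CO2 and MT-ND4 were lower.
MT-CYB (chrM:15858-15887): taattgaaaacaaaatactcaaatgggccT
MT-ND2 (chrM:5482-5511): ctatctccccttttatactaataatcttaT
MT-ND3 (chrM:10375-10404): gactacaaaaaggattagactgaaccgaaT
MT-ND1 (chrM:4233-4262): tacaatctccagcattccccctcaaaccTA
MT-CO2 (chrM:8240-8269): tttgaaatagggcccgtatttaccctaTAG
MT-ND4 (chrM:12108-12137): accccgacatcattaccgggttttcctctT

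MT-ATP8 and MT-ATP6 share 46 bases, which are in capitals in the whole MT-ATP8 gene (chrM:8366-8572), and MT-ND4L shares its last 7 bases with MT-ND4.
MT-ATP8: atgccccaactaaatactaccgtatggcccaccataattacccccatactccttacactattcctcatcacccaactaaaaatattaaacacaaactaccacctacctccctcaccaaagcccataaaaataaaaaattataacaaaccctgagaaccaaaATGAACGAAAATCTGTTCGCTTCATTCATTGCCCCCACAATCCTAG
MT-ND4L last 30 bases (chrM:10737-10766): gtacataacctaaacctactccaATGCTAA

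Of the 37 genes, 32 passed the filter on low counts and were tested by edgeR's quasi-likelihood test, with Benjamini-Hochberg adjustment over all 13767 tested genes at 0.05. In TR-107, 10 members rose and 14 fell, and 8 did not pass the test. Among the called members, MT-TK and MT-TT passed the filter only through the TR-107 group, where they are higher, and MT-TS2 only through the DMSO group. The background was wide, since 57.8% of all tested genes were called, 29.2% higher and 28.6% lower, with a median log2 fold change of 0.012. For 27 of the 32 tested members (84.4%) the 3 TR-107 libraries lay entirely above or below the 3 DMSO libraries, which held for 62.4% of all tested genes, and the 5 untested members overlapped. These shares are descriptions, since the members share precursors, and what follows concerns which members moved, in which direction and by how much. Total counts were 17264039 to 22243758 per library in TR-107 and 18344471 to 23708135 in DMSO. The epithelial markers EPCAM, KRT8, KRT18, KRT19, CDH1 and CDX2 were present in both groups, with 4 of 10 such markers too low to test (KRT20 and CDX1 at 0). Of 13 markers of other cell types 11 were too low to test, PTPRC, CD3E, CDH5 and COL3A1 were at 0, and the list's summed level was 26.7 to 31.8 CPM (CPM, the count scaled to a common library size by TMM) in TR-107 and 19.2 to 21.7 CPM in DMSO. CD68 was the 1 marker of that list that rose, and of the epithelial list KRT18, KRT19 and CDH1 rose and CDX2 fell. The part of these shifts in the results was not tested.

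**Figure D1:**
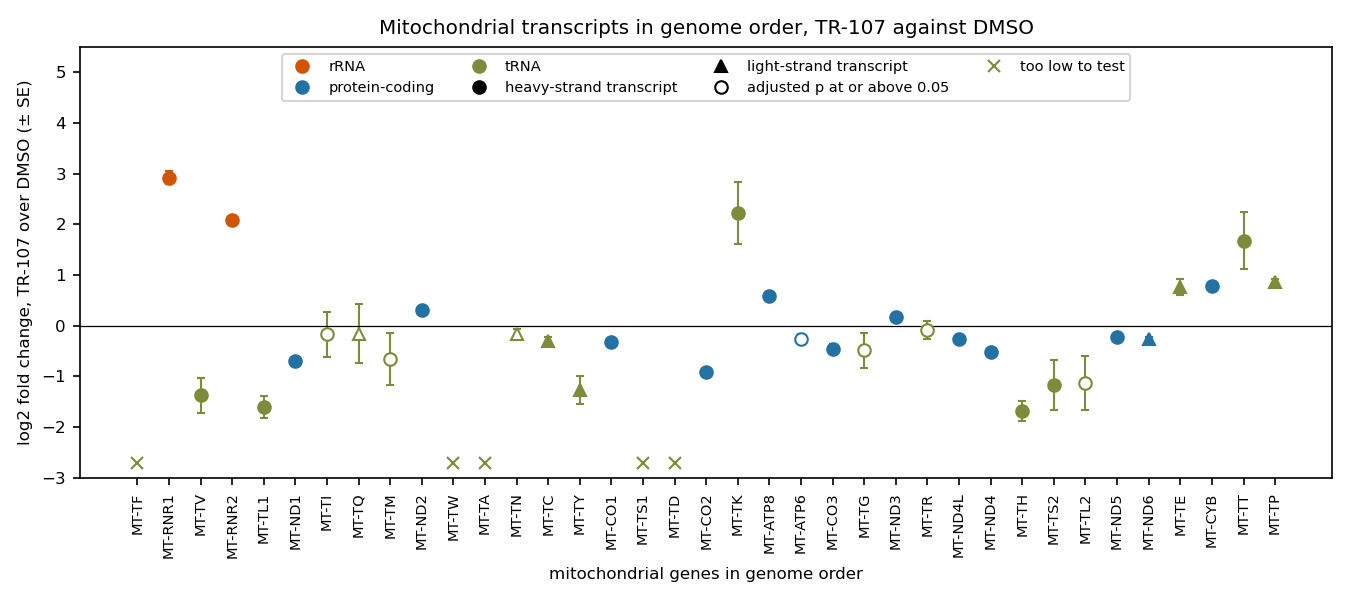
The log2 fold change (TR-107 over DMSO, ± SE) of each mitochondrial gene is plotted in genome order, with colour for class, triangles for genes transcribed from the light strand, open symbols for an adjusted p at or above 0.05 and crosses for 5 genes too low to test. MT-RNR1 stands highest at 2.92, the low-count MT-TK (2.22) and MT-RNR2 (2.09) follow, the last 4 genes lie above 0, and protein-coding genes lie between -0.91 and 0.79.

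The rRNA genes encode the catalytic and structural RNA of the mitochondrial ribosome, 12S (MT-RNR1) in the small subunit and 16S (MT-RNR2) in the large. MT-RNR1 (gene ID 4549, chrM:648-1601) had 6928, 7486 and 7822 CPM in the TR-107 libraries, against 1127, 934 and 878 CPM in the DMSO libraries. All TR-107 libraries were far above all DMSO libraries, and the rise was 7.57-fold (edgeR adjusted p = 3.75e-05; log2 fold change 2.92 ± 0.12, SE). MT-RNR2 (gene ID 4550, chrM:1671-3229) had 15162, 16316 and 16173 CPM in TR-107, against 3825, 3601 and 3804 CPM in DMSO. Its groups did not overlap either, and the rise was 4.24-fold (edgeR adjusted p = 2.28e-37; log2 fold change 2.09 ± 0.04, SE). Among the 242 tested genes that averaged 500 CPM or more, MT-RNR1 and MT-RNR2 had the 1st and 2nd highest fold changes.

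The 12S transcript had a larger fold change than the 16S transcript. MT-RNR1 had 0.457, 0.459 and 0.484 counts per count of MT-RNR2 in the TR-107 libraries, against 0.295, 0.259 and 0.231 in the DMSO libraries. This log2 ratio was higher by 0.84 in TR-107 and its groups did not overlap, with an exact two-sided permutation p of 0.1, the smallest that 3 libraries against 3 allow. Per length the 16S level exceeded the 12S level in both groups, with 10188 ± 403 CPM per kb for MT-RNR2 and 7769 ± 473 CPM per kb for MT-RNR1 in TR-107, and with 2401 ± 79.4 CPM per kb for MT-RNR2 and 1027 ± 137 CPM per kb for MT-RNR1 in DMSO (SD, n = 3).

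Relative to the mRNAs, the rRNAs took a much larger part of mitochondrial counts in TR-107. Of all counts from the 37 genes, the 2 rRNAs made up 47.5%, 46.6% and 46.4% in TR-107, against 12.9%, 13.1% and 13.2% in DMSO. The 13 protein-coding genes made up 52.8 ± 0.593% in TR-107 and 86.5 ± 0.199% in DMSO (SD, n = 3). The ratio of rRNA to protein-coding counts was 0.910, 0.878 and 0.870 in TR-107, against 0.148, 0.151 and 0.153 in DMSO, a log2 difference of 2.55 (exact two-sided permutation p = 0.1). This ratio is taken within a library and does not depend on scaling to nuclear genes. The 22 tRNA genes made up 0.382%, 0.368% and 0.332% of the 37 genes' counts in TR-107, against 0.453%, 0.493% and 0.504% in DMSO, so they were a smaller part in TR-107. Relative to protein-coding counts alone their log2 ratio was higher by 0.29 in TR-107, also without overlap (exact two-sided permutation p = 0.1). MT-TP weighed on this ratio, with 67.4, 74.1 and 71.7 CPM in TR-107, against 37.8, 39.99 and 40.3 CPM in DMSO. The other light-strand tRNA genes summed lower in TR-107, as did the heavy-strand ones. The ratio to protein-coding counts was not computed without MT-TP, so it does not show a rise of the tRNAs as a class. The tRNA share of the counts of all genes overlapped between groups, at 0.0175 ± 0.000898% in TR-107 and 0.0178 ± 0.000339% in DMSO (SD, n = 3; exact two-sided permutation p = 0.7), and the sign of the difference turned without TR-107 replicate 3. For shares of a single library, the 95% Wilson interval reached to either side by at most 3.62% of the value for the tRNAs and 0.645% for the rRNAs, counting error only.

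**Figure D2:**
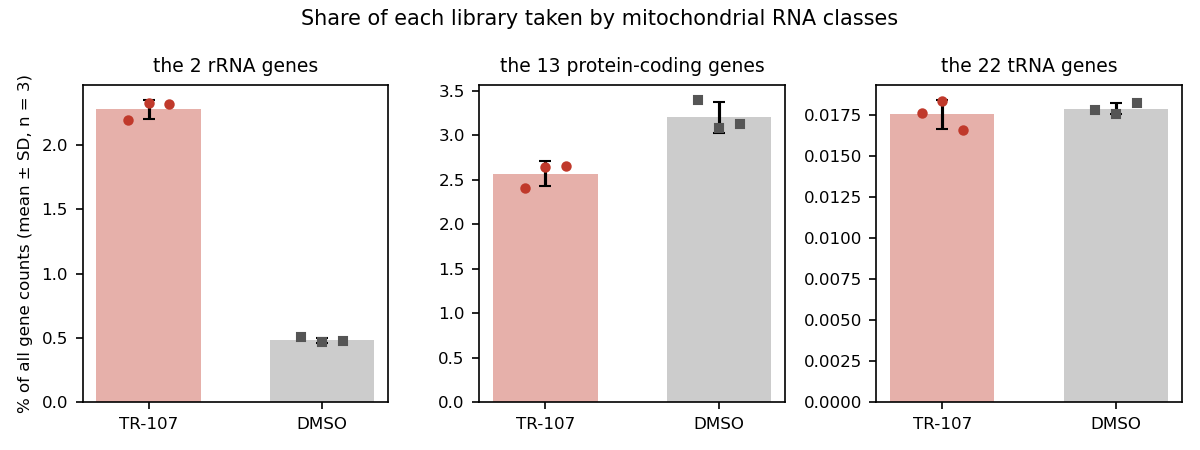
Bars give the mean ± SD (n = 3) and points each library's percent of all gene counts, with a separate linear axis from 0 for each class. The rRNA share was 2.28% in TR-107 and 0.482% in DMSO, the protein-coding share 2.57% in TR-107 and 3.20% in DMSO, and the tRNA points overlap.

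The 13 protein-coding genes encode membrane subunits of respiratory complexes I, III and IV and of ATP synthase (complex V). Of these, 4 rose and 8 fell, and MT-ATP6 did not pass, with a median log2 fold change of -0.27. In complex IV, cytochrome c oxidase, all 3 mitochondrially encoded subunits fell. MT-CO2, which holds the copper site that takes electrons from cytochrome c, had 1925, 2044 and 2074 CPM in TR-107, against 3921, 3530 and 3905 CPM in DMSO. It was 1.88-fold lower, the lowest fold change among the protein-coding genes (log2 fold change -0.91 ± 0.04, SE; edgeR adjusted p = 2.57e-22). MT-CO3 had a log2 fold change of -0.47 (edgeR adjusted p = 0.0112). MT-CO1, the catalytic subunit, had a log2 fold change of -0.33 (edgeR adjusted p = 0.000121). As a part of protein-coding counts, complex IV made up 35.1%, 35.0% and 35.4% in TR-107, against 42.3%, 41.7% and 42.5% in DMSO.

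MT-CYB, cytochrome b, is the only mitochondrially encoded subunit of complex III. It had 2545, 2907 and 3012 CPM in TR-107, against 1762, 1543 and 1581 CPM in DMSO. No TR-107 library came near the DMSO range, and the rise was 1.73-fold (log2 fold change 0.79 ± 0.08, SE; edgeR adjusted p = 0.000134). MT-CYB made up 10.5%, 10.7% and 10.9% of protein-coding counts in TR-107, against 5.28%, 5.14% and 5.17% in DMSO, the largest gain of the 13 genes in percentage points (5.51).

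The 7 complex I subunits, parts of NADH dehydrogenase, did not move together. MT-ND2, a proton-pumping subunit, had 3206, 3643 and 3641 CPM in TR-107, against 2997, 2711 and 2780 CPM in DMSO, and rose (log2 fold change 0.31 ± 0.05, SE; edgeR adjusted p = 6.91e-06). MT-ND3 had 943, 988 and 861 CPM in TR-107, against 855, 780 and 831 CPM in DMSO. It also rose, by a small margin, its lowest TR-107 library lying just above the highest DMSO library (log2 fold change 0.18 ± 0.04, SE; edgeR adjusted p = 0.00051). MT-ND1, at the joint of the membrane and peripheral arms, had 1017, 1105 and 1117 CPM in TR-107, against 1861, 1685 and 1678 CPM in DMSO. It fell in every TR-107 library relative to every DMSO library (log2 fold change -0.69 ± 0.04, SE; edgeR adjusted p = 2.18e-17). MT-ND4 had a log2 fold change of -0.52 (edgeR adjusted p = 1.68e-13), and MT-ND4L, MT-ND5 and MT-ND6 fell by 0.27, 0.22 and 0.27 on the log2 scale. MT-ND5 lost its call under limma-voom (adjusted p = 0.068). Together the 7 made up 44.8 ± 0.734% of protein-coding counts in TR-107 and 43.4 ± 0.554% in DMSO (SD, n = 3), and their ranges met at 44.0% (exact two-sided permutation p = 0.2).

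The complex V subunits MT-ATP8 and MT-ATP6 are read from 1 mRNA in overlapping frames. MT-ATP8 had 78.4, 105 and 96.8 CPM in TR-107, against 62.4, 61.5 and 62.5 CPM in DMSO, and rose (log2 fold change 0.59 ± 0.08, SE; edgeR adjusted p = 4.11e-07). MT-ATP6 had 2092, 2446 and 2560 CPM in TR-107, against 3027, 2687 and 2804 CPM in DMSO. Its groups did not overlap, but the test was missed (log2 fold change -0.26, edgeR adjusted p = 0.0597). MT-ATP6 passed in the same direction under 7 of 15 other settings, with adjusted p values from 4.45e-06 to 0.115 over all 15. The 7 that passed included the fits without DMSO replicate 1, TR-107 replicate 1 or TR-107 replicate 2. Only 161 of the 207 bases of MT-ATP8 are its own, against a read length of 150 bases, and its level per length in DMSO was 300.2 CPM per kb beside 4169 CPM per kb for MT-ATP6. How reads over the 46 shared bases printed above were counted is not given in the sources used here, so the MT-ATP8 count need not stand for the shared mRNA.

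**Figure D3:**
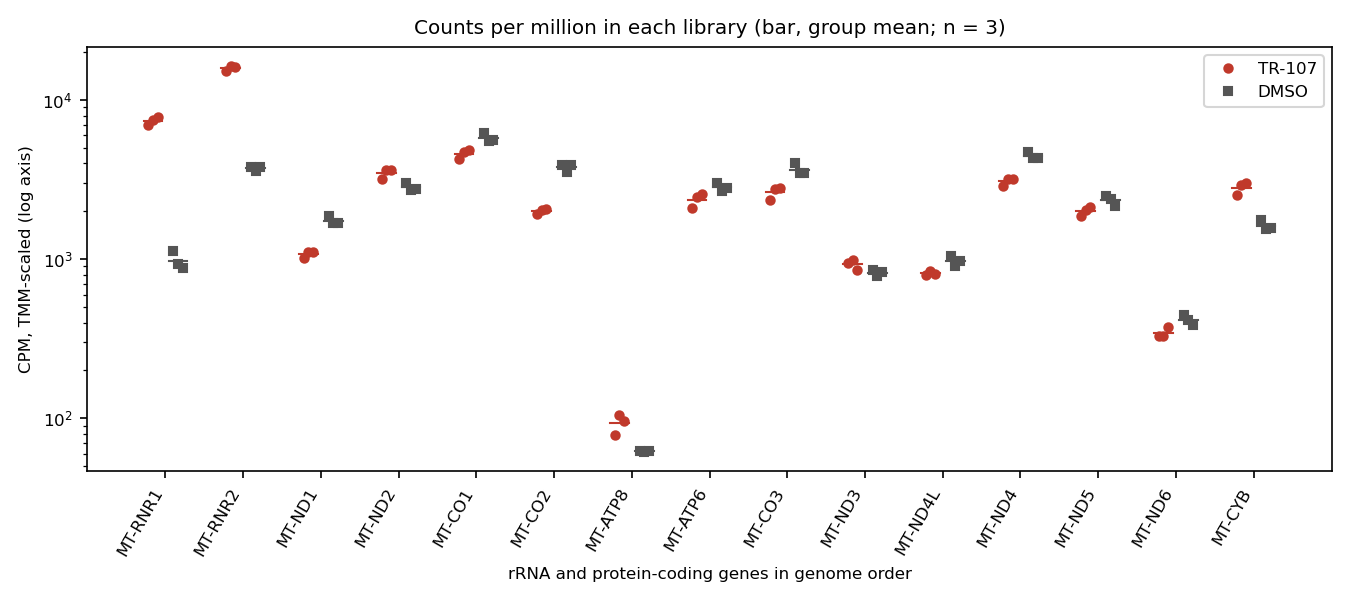
CPM on TMM-scaled library sizes (log axis) are plotted for each library, TR-107 as circles and DMSO as squares, with a bar at each group mean (n = 3). MT-RNR1 and MT-RNR2 separate most, MT-CYB, MT-ND2, MT-ND3 and MT-ATP8 are higher in TR-107, and the other protein-coding genes lie lower, MT-ATP6 without passing the test.

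Within the protein-coding counts, shares shifted among genes. Of 13 genes and 4 complexes compared, 11 shares did not overlap between the groups, each at the smallest exact two-sided permutation p of 0.1. MT-CYB entered both as a gene and as complex III. Shares of a common total are not independent, and single-gene levels did not overlap for 62.4% of all tested genes, so this count is a description. MT-ND2 made up 13.3 ± 0.133% in TR-107 and 9.03 ± 0.0527% in DMSO (SD, n = 3). MT-CO2 made up 7.66 ± 0.229% in TR-107 and 12.1 ± 0.580% in DMSO (SD, n = 3), a difference of -4.43 percentage points. The shares of MT-ATP6, MT-ND4L, MT-ND5 and MT-ND6 overlapped. MT-ND6 is the only mRNA of the light strand. Its count relative to the heavy-strand mRNAs, on the log2 scale, was -6.24 ± 0.0864 in TR-107 and -6.22 ± 0.0622 in DMSO (SD, n = 3; exact two-sided permutation p = 0.7), and the sign of the difference turned without TR-107 replicate 2 or DMSO replicate 2.

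**Figure D4:**
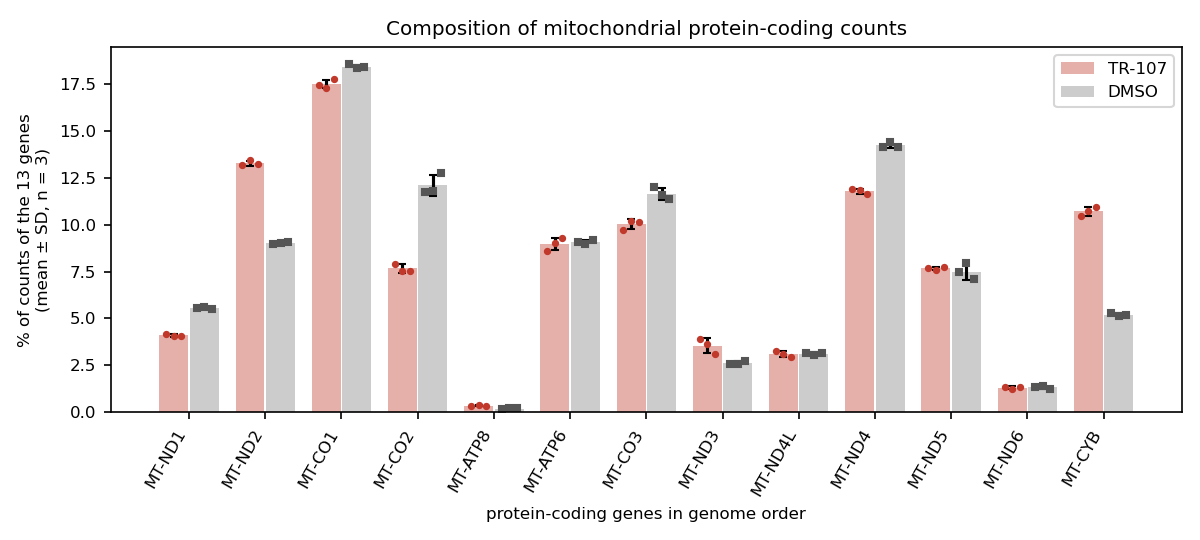
Each protein-coding gene's percent of the counts of all 13 is shown as mean ± SD (n = 3), TR-107 left of DMSO, with a point per library. MT-CYB (10.7% in TR-107 and 5.20% in DMSO) and MT-ND2 (13.3% in TR-107 and 9.03% in DMSO) take larger parts in TR-107, and MT-CO2 (7.66% in TR-107 and 12.1% in DMSO) a smaller one.

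The order of genes along the genome did not give a steady gradient. Across the 12 heavy-strand protein-coding genes, Spearman's rho of start position and log2 fold change was 0.329, as a description across genes that share libraries and precursors. Differences came as steps between successive rRNA and protein-coding genes, with the tRNA genes between them left out. From MT-RNR2 to MT-ND1, across the MT-TL1 junction printed above, the log2 ratio of downstream to upstream counts was -3.88 ± 0.0211 in TR-107 and -1.11 ± 0.0714 in DMSO (SD, n = 3), a change of -2.77. From MT-ND1 to MT-ND2 it was 1.69 ± 0.0337 in TR-107 and 0.701 ± 0.0243 in DMSO, and from MT-ND6 to MT-CYB it was 3.04 ± 0.0912 in TR-107 and 1.97 ± 0.0653 in DMSO. For 13 of 14 neighbouring pairs of rRNA and protein-coding genes the groups did not overlap (exact two-sided permutation p = 0.1 each), the exception being MT-ND5 and MT-ND6 (p = 0.3). Adjoining pairs share a gene, and single-gene levels did not overlap for 62.4% of all tested genes, so this count is a description. The share among ratios of other genes was not computed. The last 4 genes of the map, MT-TE, MT-CYB, MT-TT and MT-TP, all rose although MT-TE and MT-TP lie on the light strand and MT-CYB and MT-TT on the heavy. MT-TK and MT-ATP8, which also adjoin, rose between MT-CO2 and MT-ATP6. These stretches were picked out after their values were seen. MT-TK and MT-TT entered them on few counts, having passed the filter on low counts only through TR-107.

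Mature tRNAs carry no poly(A) tail, and their genes took few counts. Of the 22 tRNA genes 17 were tested, of which 4 rose and 6 fell and 7 did not pass. Calls were about as frequent among all tested genes (57.8%, with 29.2% higher and 28.6% lower). These counts and their split by strand below are therefore descriptions and do not set the tRNA genes apart. The heavy-strand tRNA genes (14) summed to 27.5, 26.6 and 20.97 CPM in TR-107, against 43.1, 43.3 and 40.03 CPM in DMSO. The light-strand tRNA genes (8) summed to 150.3, 161 and 151 CPM in TR-107, against 131, 128 and 139 CPM in DMSO. MT-TP carried that higher sum, since without it, an alternative chosen after seeing the data, the light-strand genes summed to 82.8, 87.2 and 79.0 CPM in TR-107, against 93.5, 87.8 and 98.3 CPM in DMSO. Of the light-strand tRNA genes MT-TE and MT-TP rose and MT-TC and MT-TY fell, and of the heavy-strand ones 2 rose and 4 fell. The ratio of light-strand to heavy-strand tRNA counts was 5.46, 6.07 and 7.19 in TR-107, against 3.05, 2.95 and 3.46 in DMSO, a log2 difference of 0.98 with groups that did not overlap (exact two-sided permutation p = 0.1). Without MT-TP it was 3.01, 3.28 and 3.77 in TR-107, against 2.17, 2.03 and 2.46 in DMSO. Whether reads were assigned by strand is not given in the sources used here, so a tRNA count may include RNA of the opposite strand. The tRNA genes are also shorter (59 to 75 bases) than a read of 150 bases, and how reads over more than 1 gene were counted is not given.

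Of the 3 tRNA genes that flank the rRNA genes, the 2 that could be tested had lower counts in TR-107, opposite to the rRNAs. MT-TV (valine, between MT-RNR1 and MT-RNR2) had 1.46, 1.31 and 1.07 CPM in TR-107, against 3.26, 3.06 and 3.64 CPM in DMSO (log2 fold change -1.38 ± 0.34, SE; edgeR adjusted p = 0.000698). MT-TL1 (leucine) had 3.56, 4.60 and 1.86 CPM in TR-107, against 10.1, 9.61 and 10.5 CPM in DMSO (log2 fold change -1.60 ± 0.22, SE; edgeR adjusted p = 6.23e-08). In raw numbers MT-TV had 23 to 25 counts in TR-107 and 61 to 88 in DMSO, while MT-RNR1 beside it had 118581 to 167851 counts in TR-107 and 21057 to 21369 in DMSO. MT-TV has 69 bases and abuts both rRNA genes, so a read of 150 bases over it also covers an rRNA gene. How such reads were counted is not given in the sources used here, so the counts of these tRNA genes need not stand for the tRNAs. The first gene of the map, MT-TF (phenylalanine), just before MT-RNR1, was below the filter.

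The histidine tRNA gene MT-TH, after MT-ND4, had 4.26, 3.29 and 3.12 CPM in TR-107, against 13.1, 11.97 and 9.22 CPM in DMSO, the lowest fold change of the tested members (log2 fold change -1.68 ± 0.19, SE; edgeR adjusted p = 4.45e-10). MT-TY (tyrosine, -1.27), MT-TS2 (serine, -1.17) and MT-TC (cysteine, -0.30) also fell on the log2 scale. MT-TS2 passed the filter on low counts only through its DMSO counts. The MT-TS2 call was lost in 7 of 15 other settings, among them those without any 1 DMSO library, TR-107 replicate 1 or TR-107 replicate 3, with adjusted p values of 0.0165 to 0.167 over all 15. MT-TP (proline), the last gene of the map, had 67.4, 74.1 and 71.7 CPM in TR-107, against 37.8, 39.99 and 40.3 CPM in DMSO, and rose (log2 fold change 0.85 ± 0.07, SE; edgeR adjusted p = 3.95e-14). MT-TE (glutamate), next to MT-CYB, had 11.9, 13.4 and 11.4 CPM in TR-107, against 8.40, 7.47 and 5.91 CPM in DMSO (log2 fold change 0.76 ± 0.16, SE; edgeR adjusted p = 8.83e-05). MT-TV, MT-TH, MT-TE and MT-TP, shown as 2 genes that fell and 2 that rose, are printed with the anticodon in capitals.
MT-TV (chrM:1602-1670, plus strand): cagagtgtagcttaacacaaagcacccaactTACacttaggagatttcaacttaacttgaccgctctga
MT-TH (chrM:12138-12206, plus strand): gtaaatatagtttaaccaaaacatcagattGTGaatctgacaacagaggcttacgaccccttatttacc
MT-TE (chrM:14674-14742, minus strand): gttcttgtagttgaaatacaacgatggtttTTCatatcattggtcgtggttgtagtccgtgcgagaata
MT-TP (chrM:15956-16023, minus strand): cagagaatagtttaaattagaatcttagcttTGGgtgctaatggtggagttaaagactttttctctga

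The other tRNA rises rested on few counts. Both genes, MT-TK and MT-TT, passed the filter on low counts only through their TR-107 counts, as their DMSO counts alone fell short of it. Their calls are therefore no independent support for a rise. MT-TK (lysine) had 26, 36 and 26 counts in TR-107, against 2, 17 and 3 counts in DMSO (edgeR adjusted p = 0.00173; log2 fold change 2.22 ± 0.61, SE). Its log2 fold change was 3.67 without DMSO replicate 2, the library with 17 counts, and 1.81 or more in the other 14 settings. MT-TT (threonine) had 22, 37 and 21 counts in TR-107, against 10, 4 and 15 in DMSO (edgeR adjusted p = 0.0104; log2 fold change 1.68 ± 0.57, SE). The call was lost without DMSO replicate 2 (adjusted p = 0.0854) or TR-107 replicate 2 (adjusted p = 0.0989). MT-TG, MT-TI, MT-TL2, MT-TM, MT-TN, MT-TQ and MT-TR did not pass, with log2 fold changes from -1.12 for MT-TL2 to -0.086 for MT-TR. MT-TN passed without DMSO replicate 2 and under scaling to library size alone (adjusted p = 0.0455 and 0.0285), and MT-TL2 under a filter of 1 CPM in 3 libraries and in limma-voom (adjusted p = 0.0447 and 0.0475). MT-TN (asparagine) was among the most counted tRNA genes, with 577, 610 and 681 counts in TR-107, against 659, 770 and 997 in DMSO.

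The other 5 tRNA genes fell below edgeR's filter on low counts in the main test. MT-TF had 3, 3 and 1 counts in TR-107, against 1, 5 and 0 in DMSO. MT-TW (tryptophan) had 15, 2 and 21 counts in TR-107, against 4, 0 and 0 in DMSO, where a count of 0 allows up to 0.131 and 0.124 CPM. Its groups overlapped. It passed as higher in all 6 of the other fits that kept it, among them DESeq2 (adjusted p = 0.0211) and edgeR without the filter (adjusted p = 0.0116). Fits with 1 library left out kept MT-TW only through its TR-107 counts. All 6 fits reuse the same few counts, so their number adds no support for a rise. MT-TF, MT-TA, MT-TS1 and MT-TD did not pass in any fit that kept them. MT-TA (alanine) had 0, 4 and 0 counts in TR-107, against 1, 0 and 8 in DMSO. MT-TS1 (serine) had 1, 5 and 2 counts in TR-107, against 8, 11 and 5 in DMSO, and MT-TD (aspartate) had 17, 9 and 10 in TR-107, against 6, 23 and 10 in DMSO.

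**Figure D5:**
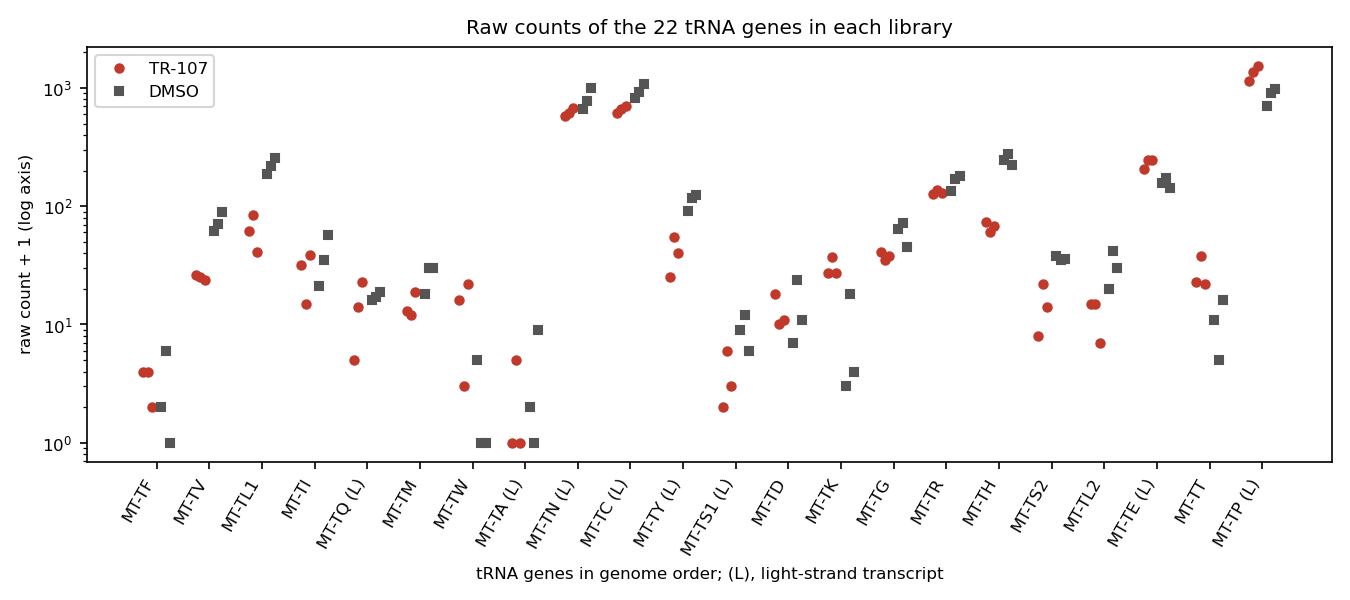
Raw counts of the 22 tRNA genes (plus 1, log axis) are plotted for each library in genome order, with (L) for light-strand transcripts. MT-TN, MT-TC and MT-TP hold the most counts, MT-TV, MT-TL1, MT-TY and MT-TH are lower in TR-107, and MT-TE and MT-TP are higher.

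The encoded stop codons did not separate the genes that rose from those that fell. A single T was encoded by MT-ND2, MT-ND3 and MT-CYB, which rose, and by MT-CO3 and MT-ND4, which fell. MT-ATP8, which rose, and MT-CO2, which fell most, both end in TAG. Across the 13 genes, Spearman's rho with log2 fold change was -0.5 for GC content, -0.154 for length and -0.555 for the log2 level per kb in DMSO, as descriptions. The level per kb in DMSO and the fold change share the DMSO libraries.

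Several members have near-identical copies in the nuclear genome. A stretch of chromosome 1 holds copies of MT-ND1 (in part), MT-ND2, MT-CO1, MT-CO2, MT-ATP8, MT-ATP6 and MT-CO3 (in part) with 97.6% to 99.4% identity over the aligned bases. None of 474 mitochondrial pseudogene IDs in the RefSeq table had a row in the count files used here, and how reads matching several places were treated is not given, so whether reads of those 7 genes were lost to the copies was not tested. The MT-RNR2-like genes MTRNR2L1 to MTRNR2L10 took 113 counts over all 6 libraries. MTRNR2L8 took 44 and MTRNR2L3 took 12 of them. The most counted, MTRNR2L2, had 15, 13 and 11 counts in TR-107, against 4, 3 and 10 in DMSO.

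Of a list of nuclear-encoded RNAs without a poly(A) tail, few could be tested. RN7SL1, the RNA of the signal recognition particle, had 77.9, 63.1 and 67.3 CPM in TR-107, against 118, 146 and 108 CPM in DMSO, and fell (log2 fold change -0.84, edgeR adjusted p = 0.00534). Its near-identical copy RN7SL2 fell by 0.75 on the log2 scale. Of 32 listed RNAs, 20 had a row and 5 were tested, of which 2 fell and 0 rose in edgeR, DESeq2 and limma-voom alike (0 higher also at an unadjusted p under 0.05 in each), and the list's summed level was 128 to 163 CPM in TR-107 and 215 to 287 CPM in DMSO. Of 38 replication-dependent histone genes, whose mRNAs end in a stem-loop in place of a tail, 9 were tested and 0 passed in edgeR (0 at an unadjusted p under 0.05, 0 in DESeq2, and 1 lower in limma-voom), with the list at a summed level of 17.8 to 20.6 CPM in TR-107 and 18.8 to 20.8 CPM in DMSO.

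Of the nuclear genes that make and process mitochondrial RNA, the 4 lists below are read against the 28.6% of all tested genes that fell and the 29.2% that rose. Of 16 tested genes of mitochondrial DNA transcription and maintenance, 12 fell and 0 rose in edgeR, DESeq2 and limma-voom alike, with a median log2 fold change of -0.38. At an unadjusted p under 0.05, 0 were higher in edgeR and DESeq2 and 1 in limma-voom. MRPL12, POLG and TFAM, the packaging and transcription factor, fell by 0.70, 0.48 and 0.55 on the log2 scale. POLRMT, the mitochondrial RNA polymerase, had 161 ± 9.34 CPM in TR-107 and 237 ± 10.5 CPM in DMSO (SD, n = 3). MTERF1, named for its site in MT-TL1 and not by the naming rule, had 12.5 ± 1.25 CPM in TR-107 and 18.7 ± 1.40 CPM in DMSO (SD, n = 3; log2 fold change -0.58, edgeR adjusted p = 0.000106). Of 21 tested genes of RNA processing, polyadenylation, stability and decay, 15 fell and 2 rose (median -0.41). ELAC2, which cuts at the 3′ ends of tRNAs, had 127 ± 5.14 CPM in TR-107 and 233 ± 3.88 CPM in DMSO. TRMT10C, a subunit of the RNase P that cuts at their 5′ ends, had 37.2 ± 5.15 CPM in TR-107 and 73.7 ± 5.07 CPM in DMSO (SD, n = 3 each). PDE12, which removes A tails, and TBRG4 fell by 0.72 and 0.53 on the log2 scale. SUPV3L1, the helicase of the RNA degradosome, and ANGEL2 rose, by 0.26 and 0.21 on the log2 scale, and ANGEL2 lost its call in DESeq2 (adjusted p = 0.0999).

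Among genes acting on the rRNAs and tRNAs themselves, most calls were lower in TR-107 and fewer were higher. Of 24 tested genes of rRNA modification and ribosome assembly, 12 fell and 4 rose (median -0.26), with MRM3, a methyltransferase of 16S rRNA, at 24.6 ± 1.05 CPM in TR-107 and 43.5 ± 3.37 CPM in DMSO (SD, n = 3), and DHX30, MPV17L2 and RCC1L fell by 0.45, 0.97 and 0.59 on the log2 scale. NGRN, RPUSD3, GTPBP10 and MTG1 rose by 0.29, 0.47, 0.22 and 0.33, and MTG1 lost its call in DESeq2 (adjusted p = 0.0833). Of 15 tested genes of tRNA modification, 9 fell and 1 rose (median -0.30). TRMU, which thiolates a set of mitochondrial tRNAs, had a log2 fold change of -0.78, QTRT2, PUS1 and CDK5RAP1 fell by 0.46, 0.30 and 0.37 on the log2 scale, and MTO1, which modifies a wobble base, was the 1 that rose (0.51).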

How the data were processed

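Per the labels' protocols, poly(A)-enriched libraries of HCT116 were read as pairs of 150 bases. The deposited values were raw counts per gene, made by the authors with featureCounts after Trimmomatic and HISAT2 on hg38, per the submitters' processing notes. Versions, annotation, and strand and multi-mapping settings are not given there. Symbols came from RefSeq (27745 of 28395 IDs matched), and strands and sequences from GENCODE 29, both on GRCh38, as is hg38.

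The main test was edgeR 4.0.16 (R 4.3.3) with TMM scaling, filterByExpr, a robust quasi-likelihood fit and the group alone, over all genes. CPM values used TMM-scaled library sizes. Shares and ratios were compared by exact permutation with SciPy 1.17.1, and pairs of sequences were aligned with Biopython 1.88. Ratios of tRNA counts were added after the data were seen. Total counts per library were 17264039 to 23708135. The tests were also run on simulated data. Replicates differed beyond sampling noise (chi-square of 3.92 to 6.05 per degree of freedom), so each counted once. The members and gene lists were chosen with earlier results of these data known. All 37 members are accounted for, list genes are named by the smallest p (up to 4 per direction), and MTRNR2L genes by their summed count. MTERF1 and the cell markers were named outside that rule. Alternatives were other scalings, filters, a replicate block, DESeq2 1.42.0, limma-voom (limma 3.58.1), mitochondrial genes left out of scaling, and each library left out.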

Additional observations from a re-analysis of the deposited data

How the results depend on the processing

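The counts of members called were 9 to 11 higher and 13 to 16 lower over 15 other settings, and of all genes called 7323 to 8021. Of 477 refitted fold changes of single members, 452 kept direction and call, 10 lost the call, 11 gained it and 4 changed sign. The sign changes were in uncalled tRNA genes when 1 library was left out, with log2 fold changes of -0.3993 to 0.169 for MT-TI (above 0 without DMSO replicate 3 or TR-107 replicate 2), -0.6402 to 0.2234 for MT-TQ (above 0 without TR-107 replicate 1) and -0.143 to 0.01034 for MT-TR (above 0 without TR-107 replicate 3). Calls were gained by MT-ATP6, MT-TL2 and MT-TN, and lost by MT-TS2, MT-TT and MT-ND5. MT-TW, below the main filter, was called higher in the 6 fits that kept it, which reuse the same few counts. Leaving out a library moved the group difference in tRNA share, in percentage points, between -0.0007548 and 0.0001379, and the log2 difference in the MT-ND6 ratio between -0.05135 and 0.03144. The shares of all members, rRNA and protein-coding genes and the rRNA ratios kept their direction. In a check chosen after seeing the data, leaving out a library turned the sign for 5 of the 17 shares of protein-coding counts, all overlapping, with ranges in percentage points of -0.243 to 0.0922 (MT-ATP6), -0.115 to 0.0584 (MT-ND4L), -0.0305 to 0.389 (MT-ND5), -0.0454 to 0.0280 (MT-ND6) and -0.0857 to 0.264 (complex V), and for none of the 14 neighbour ratios. Same-numbered libraries of the groups did not deviate together (r = -0.0311, -0.0185 and 0.0486). With 3 libraries per group this cannot exclude that they were paired. With the replicate number as a block, 10 members were called higher and 15 lower, and 7918 genes were called in all. Scaling to library size alone moved the median of all genes by -0.0641 (log2), and on the same genes the next largest shift was -0.0104, without DMSO replicate 3. Depth limits the tRNA genes, of which 5 were below the main filter. The cause of these changes was not tested.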
